A study of Homo sapiens with 6 samples.

Results

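Expression of 10 genes of the Notch pathway was followed in MB157 cells after an sgRNA against SOX9: the receptors NOTCH1, NOTCH2 and NOTCH3, the ligands JAG1 and JAG2, the target genes HES1, HES4, HEY1 and NRARP, and the ubiquitin ligase gene NEURL1B. They were chosen by gene symbol, 10 of the 57209 gene identifiers counted, together with each row whose exons overlap a member on the other DNA strand, of which there were 2. MB157 is an established triple-negative breast cancer line, and the cells carried Cas9 according to the sample titles, while the series' design text says that they stably expressed SOX9. Puromycin was in the medium of both groups. The cells had either an sgRNA targeting SOX9 or a control sgRNA for 4 days, and flow cytometry then kept the 50% with the highest sgRNA expression. Each group held 3 libraries, which the labels call technical replicates, so p-values below measure only the spread between libraries. The comparison was made to find SOX9 target genes in this cancer subtype.

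Notch receptors are cut by proteases when a ligand on a neighbouring cell pulls on them, and the freed intracellular part enters the nucleus. There it binds RBPJ with a Mastermind protein and turns on genes such as the HES and HEY repressors and NRARP, which feeds back on the pathway. Ligands work only when they are taken up into the sending cell, a step that needs E3 ubiquitin ligases, among them the Neuralized family. In breast epithelium Notch signalling takes part in luminal cell fate, and a subset of triple-negative tumours and lines carries Notch receptor rearrangements.

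The 250 bases before the RefSeq gene start (GRCh38.p14) were available for 9 of the 10 members, and 4 are printed. These are JAG1 and NEURL1B, the members with an other-strand row, and HES1 and HES4, the targets with a match to the core of the RBPJ motif. The JAG1 and NEURL1B windows lie before the starts of these members. The rows on their other strand start elsewhere, and the bases before those starts are not shown. Sequences run 5′ to 3′ on the strand of the gene, and capitals mark each match to TGGGAA, the RBPJ core, or to ACAATG or ACAAAG, cores bound by SOX proteins, on either strand. They lie at chr20:10674000-10674249 (minus strand), chr5:172641013-172641262 (plus), chr3:194135898-194136147 (plus) and chr1:1000098-1000347 (minus).
JAG1: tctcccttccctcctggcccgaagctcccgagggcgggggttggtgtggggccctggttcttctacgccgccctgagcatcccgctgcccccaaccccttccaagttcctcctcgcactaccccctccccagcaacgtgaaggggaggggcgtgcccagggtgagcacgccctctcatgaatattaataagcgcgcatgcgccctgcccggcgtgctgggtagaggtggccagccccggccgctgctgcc
NEURL1B: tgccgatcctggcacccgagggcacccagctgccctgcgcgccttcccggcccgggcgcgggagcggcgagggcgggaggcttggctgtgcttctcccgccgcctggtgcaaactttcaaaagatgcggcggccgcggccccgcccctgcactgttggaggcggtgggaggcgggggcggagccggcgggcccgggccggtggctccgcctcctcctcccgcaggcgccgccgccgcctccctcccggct
HES1: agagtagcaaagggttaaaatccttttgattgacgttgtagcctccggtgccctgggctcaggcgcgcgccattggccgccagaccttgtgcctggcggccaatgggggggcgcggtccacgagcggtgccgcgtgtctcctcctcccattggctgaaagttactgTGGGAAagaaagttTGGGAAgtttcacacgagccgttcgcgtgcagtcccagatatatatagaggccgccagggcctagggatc
HES4: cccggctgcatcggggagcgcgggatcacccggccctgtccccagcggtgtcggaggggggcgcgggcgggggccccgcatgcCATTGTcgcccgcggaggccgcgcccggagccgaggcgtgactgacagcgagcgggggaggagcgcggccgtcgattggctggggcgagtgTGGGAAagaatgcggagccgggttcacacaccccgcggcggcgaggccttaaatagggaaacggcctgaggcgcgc
The HES1 promoter held TGGGAA at 2 places, 84 to 79 and 70 to 65 bases before the start, and the HES4 promoter held it once, 76 to 71 bases before the start. HES4 also held ACAATG on the reverse strand, printed as CATTGT, 167 to 162 bases before the start, and NRARP held the same core on the reverse strand 55 to 50 bases before the start. No match to any of the 3 cores lay in these windows of the other 6 members, JAG1 and NEURL1B included, and no matches overlapped each other. Of 35116 promoters of the same length, 20.8% held TGGGAA, 13.7% held ACAAAG and 9.29% held ACAATG, so a match is a description of the letters and not a binding site.

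Few fragments were counted for genes. SOX9 sgRNA libraries 1 to 3 held 829738, 776125 and 1018854 counts, and control libraries held 841592, 881655 and 777960. These totals depend on the strand setting used in counting. Read totals were not available, so whether the libraries were sequenced to a low depth was not tested. More genes had at least 1 count in SOX9 sgRNA libraries, 20207 to 21082, than in control libraries, 18326 to 18818. The row of the targeted gene itself, SOX9, an SRY-related transcription factor on chr17:70117161-70122561 (GRCh37), had 37, 39 and 60 counts with the SOX9 sgRNA, against 38, 52 and 44 with the control sgRNA. Its log2 fold change was -0.22 (SE 0.26, 95% interval -0.74 to 0.29, edgeR quasi-likelihood adjusted p = 0.700), so this row gives no check of the knockout. Which strand's RNA the row counts was not tested, and an edited transcript can still be counted. The line's label was checked against marker genes. Summed CPM (a count as parts of 1e6 of the library's tested total, scaled by TMM factors) of 5 simple epithelial markers was 815 to 1018 in SOX9 sgRNA libraries and 979 to 1070 in control libraries. Within that list KRT7 (log2 fold change -0.97, edgeR adjusted p = 0.0183) and KRT19 (-0.74, 1.83e-05) fell, EPCAM was at -0.68 with groups that did not overlap (0.105), and KRT18 (0.33, 0.594) and KRT8 (0.11, 0.566), which share exons on opposite strands, did not pass. The 2 endothelial markers were at 0, and the pan-leukocyte gene PTPRC had 0 or 1 count. Summed CPM of 4 immune markers was 35.0 to 41.6 in SOX9 sgRNA libraries and 15.2 to 30.2 in control libraries, carried by CD68, with CD3E and LYZ at 0 in every library. Basal markers (3) summed to 138 to 146 CPM in SOX9 sgRNA libraries and 101 to 137 in control libraries, but its members differed: KRT5 had 113, 102 and 127 counts with the SOX9 sgRNA and 62, 78 and 79 with the control sgRNA (adjusted p = 0.173), KRT17 had 7, 4 and 10 with the SOX9 sgRNA and 0, 3 and 0 with the control sgRNA, and KRT14 had 1, 0 and 6 with the SOX9 sgRNA and 14, 9 and 16 with the control sgRNA (with no filter, log2 fold change -2.73, adjusted p = 0.0099). Fibroblast markers (3, COL3A1 at 0) summed to 3.89 to 9.64 in SOX9 sgRNA libraries and 2.54 to 5.75 in control libraries, and the 3 hormone receptor and HER2 genes to 191 to 227 in SOX9 sgRNA libraries and 194 to 241 in control libraries, nearly all ERBB2. The part of these differences in the results below was not tested.

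Counts were taken by strand, and rows that lie opposite another gene held most of them: 11223 genes, 19.6% of all, had an exon overlapping one on the other strand and took 80.9% to 81.5% of the counts. KRT7, a keratin of simple epithelia, had 25, 25 and 31 counts on its own row with the SOX9 sgRNA and 53, 48 and 35 with the control sgRNA. The row on its other strand, KRT7-AS, had 758, 728 and 962 counts with the SOX9 sgRNA and 1353, 1368 and 1254 with the control sgRNA. The sources do not say whether the strand setting used in counting is the one the kit calls for, and if the kit calls for the opposite one, the other-strand rows hold reads of the members. Whether a row's counts came from RNA of its own strand or of the other one was not tested, and no count below is therefore called the mRNA level of its gene. In bulk libraries such as these, fewer cells expressing a gene and less RNA per cell cannot be told apart either.

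None of the 10 Notch genes passed the test on its own row, while both rows on the other strand of a member rose with the SOX9 sgRNA. Of the 10 own rows, 6 had enough counts to be tested and 0 passed an edgeR adjusted p of 0.05, against 9.01% of all 7959 rows tested. At an unadjusted p of 0.05, 1 of them passed (JAG1), against 20.5% of all rows tested, and DESeq2 called 0. The 2 rows on the other strand, ENSG00000270792 opposite JAG1 and ENSG00000253445 opposite NEURL1B, had log2 fold changes of 1.47 and 0.92, where 2.99% of all rows tested rose and 3.40% of the 5003 tested rows with an exon on the other strand did. Members and other pathway genes were chosen with earlier results of these data known. Such shares therefore give background and do not measure how unusual the chosen rows are. The median log2 fold change was 0.17 over the 6 tested own rows and 0.01 over all rows tested. Of these 6, JAG1 and NRARP reached the minimum for the test in 3 SOX9 sgRNA libraries each, but in 0 and 1 control libraries. Both entered through the group where they are higher, so the filter weighs on this median and no shift is read from it.

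The receptors, which are the signal-receiving proteins, did not pass the test in either direction. NOTCH1 (ENSG00000148400, chr9:139388896-139440314, GRCh37) had 43, 44 and 35 counts with the SOX9 sgRNA, against 31, 50 and 24 with the control sgRNA. The groups overlapped, and CPM averaged 47.7 ± 12.1 with the SOX9 sgRNA and 46.5 ± 15.1 with the control sgRNA (SD, n = 3 each). Its log2 fold change was 0.01 (SE 0.29, 95% interval -0.56 to 0.59, edgeR adjusted p = 0.988), an interval that holds changes of either sign.

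NOTCH2 (ENSG00000134250, chr1:120454176-120612240) had 53, 60 and 70 counts with the SOX9 sgRNA, against 60, 45 and 37 with the control sgRNA. In CPM all 3 SOX9 sgRNA libraries, at 63.8, 78.0 and 68.1, lay within the control range of 53.2 to 80.1. Its log2 fold change was 0.14 (SE 0.24, 95% interval -0.34 to 0.61, edgeR adjusted p = 0.825). The genome holds near-identical partial copies of NOTCH2, so its count is uncertain.

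NOTCH3, the receptor best known from vascular smooth muscle, was the receptor with the highest counts per length. NOTCH3 (ENSG00000074181, chr19:15270444-15311792) had 75, 66 and 89 counts with the SOX9 sgRNA, against 56, 51 and 45 with the control sgRNA. In CPM all 3 SOX9 sgRNA libraries, at 90.3, 85.8 and 86.6, lay above the control libraries at 74.8, 64.8 and 64.7. The fold change did not pass the test, at a log2 value of 0.36 (SE 0.22, 95% interval -0.07 to 0.80, edgeR adjusted p = 0.360). Groups that do not overlap, with the SOX9 sgRNA higher, were found for 11.7% of all rows tested, and for NOTCH3 and JAG1 among the 6 tested members.

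**Figure D1:**
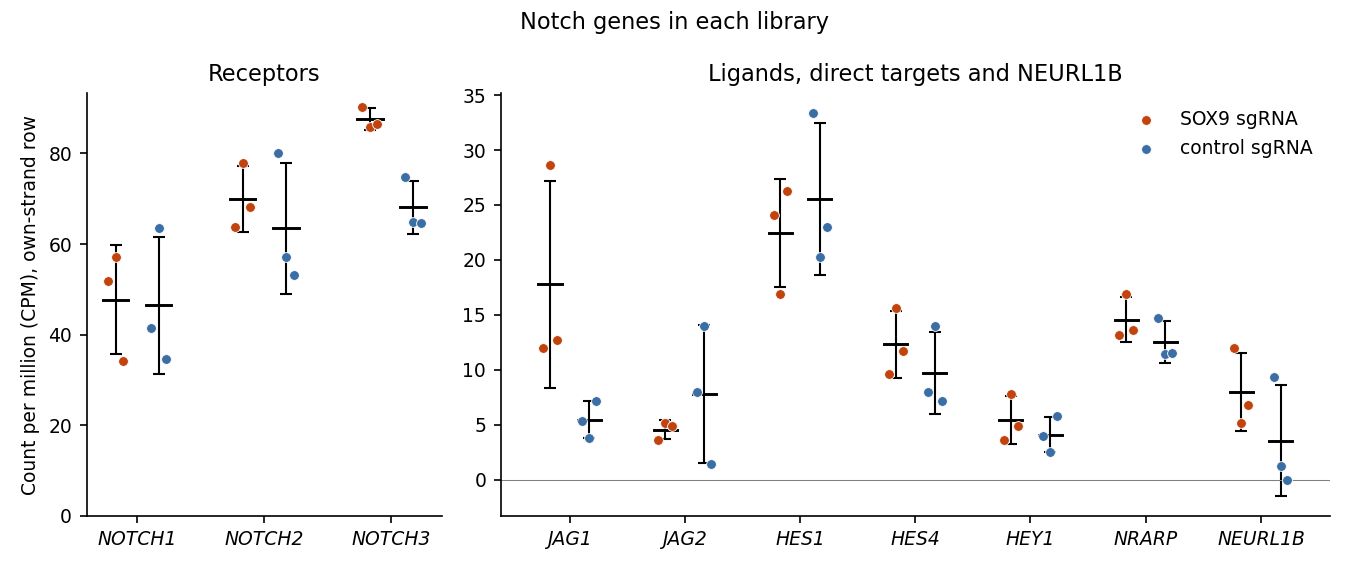
CPM, scaled by TMM factors, of the own rows of the 10 Notch members, receptors in the left panel and the other members in the right one, with points for single libraries, SOX9 sgRNA left of control sgRNA, and bars for the mean ± SD (n = 3 libraries each). NOTCH3 and JAG1 are the tested members whose groups do not overlap.

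JAG1, the ligand whose loss causes Alagille syndrome in people, had few counts, at most 22 per library. JAG1 (ENSG00000101384, chr20:10618332-10654694) had 10, 22 and 13 counts with the SOX9 sgRNA, against 4, 3 and 5 with the control sgRNA. All 3 SOX9 sgRNA libraries were higher, with CPM of 17.8 ± 9.38 with the SOX9 sgRNA and 5.45 ± 1.69 with the control sgRNA (SD, n = 3 each). Its log2 fold change of 1.67 (SE 0.63, 95% interval 0.41 to 2.93) missed the threshold, with an edgeR adjusted p of 0.0895. SOX9 sgRNA library 2 weighed on this value: without it the log2 fold change was 1.16 (adjusted p = 0.574). JAG1 reached the minimum for the test in all 3 SOX9 sgRNA libraries and in 0 control libraries, so it entered only through the group where it is high. Scaled by library totals alone it did pass (log2 fold change 1.85, adjusted p = 0.0427). ENSG00000270408 shares 286 exonic bases with JAG1 on the same strand and had at most 2 counts per library.

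The row on the other strand of JAG1 held a large difference. ENSG00000270792 (chr20:10653576-10975572, plus strand), an antisense gene in GENCODE, had 126, 135 and 142 counts with the SOX9 sgRNA, against 36, 59 and 30 with the control sgRNA. The lowest SOX9 sgRNA library lay far above the highest control library. CPM averaged 155 ± 18.8 with the SOX9 sgRNA and 55.4 ± 17.1 with the control sgRNA (SD, n = 3 each), and its log2 fold change was 1.47 (SE 0.20, 95% interval 1.06 to 1.88, edgeR adjusted p = 8.99e-08). The ratio of summed counts per TMM-scaled total was 2.74 (95% exact interval 2.24 to 3.38, counting error only). By fold change the row stood at place 51 of the 238 rows that rose, and it was the first of the 88 that rose and had at least its abundance.

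Only a small stretch of this row lies in JAG1. Of its 1279 exonic bases 79 lie in the second of JAG1's 27 exon blocks, which begins 1.040 kb from the JAG1 start. The other 10 of its 11 exon blocks run, in kb relative to the JAG1 start, from -320.878 to -228.238, which is upstream of it, and 117 bases overlap ENSG00000232900, which had 0 counts in all 6 libraries. The tables hold 1 count per gene, so reads in the 79 shared bases and reads in the other blocks cannot be told apart. JAG1's own row took 7.35%, 14.0% and 8.39% of the counts of the pair in SOX9 sgRNA libraries, and 10.0%, 4.84% and 14.3% in control libraries. The exact binomial 95% intervals of these shares, for counting error only, were 3.58% to 13.1%, 8.99% to 20.4%, 4.54% to 13.9% in SOX9 sgRNA libraries and 2.79% to 23.7%, 1.01% to 13.5%, 4.81% to 30.3% in control libraries. The shares overlapped between the groups.

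**Figure D2:**
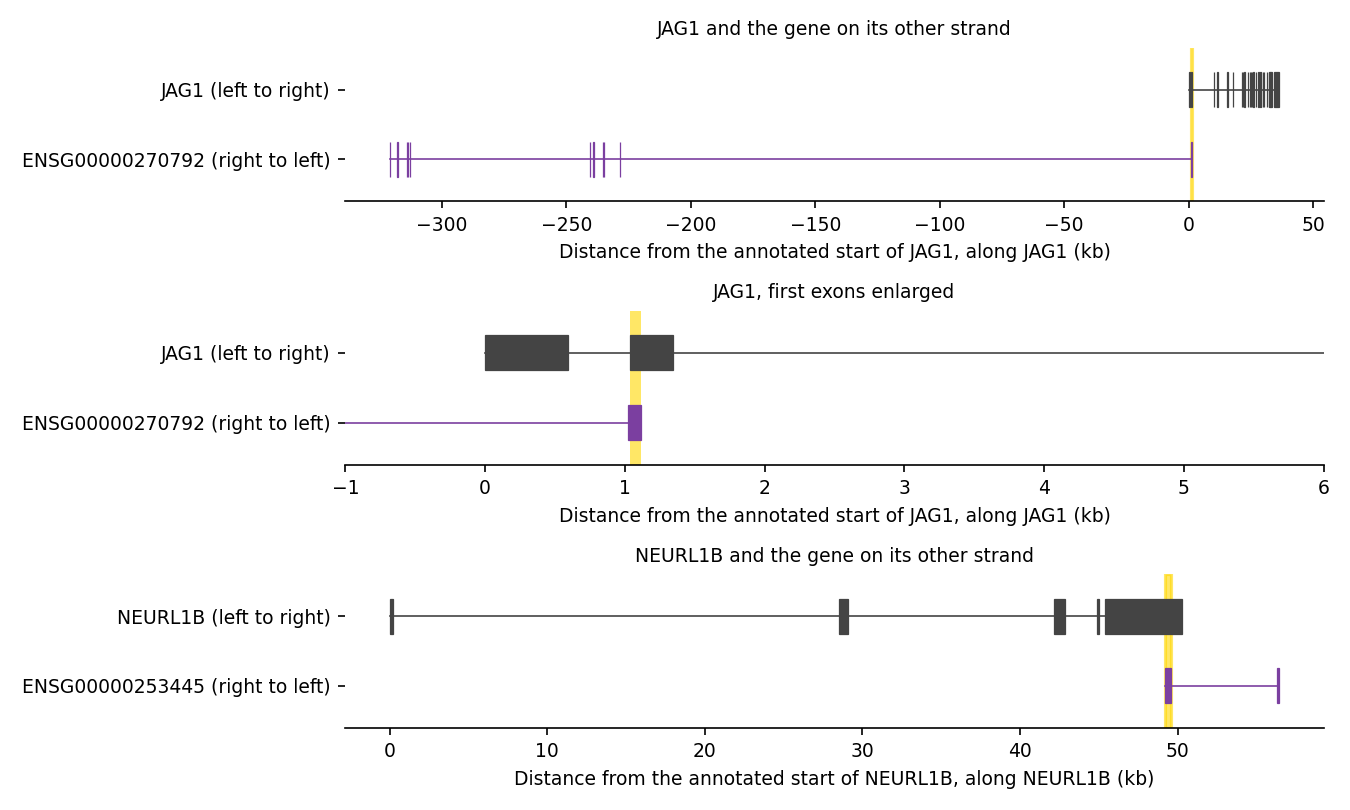
Exon blocks of JAG1 and NEURL1B (own rows) and of the rows on their other strand, against distance in kilobases from the member's start, with yellow bands where exons of both strands overlap. The row opposite JAG1 shares 79 bases with the second exon block of JAG1 and has its other blocks between -320.878 and -228.238 kb, upstream of the start, while the row opposite NEURL1B has a 383-base block within the last NEURL1B block.

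JAG2, the other Jagged ligand, was too low to test. JAG2 (ENSG00000184916, chr14:105607318-105635161) had 3, 4 and 5 counts with the SOX9 sgRNA, against 6, 11 and 1 with the control sgRNA. The control libraries spanned the SOX9 sgRNA libraries on both sides. The ratio of summed counts per TMM-scaled total was 0.566 (95% exact interval 0.249 to 1.24, counting error only). On the same strand ENSG00000257622 shares 469 exonic bases with JAG2 and had at most 2 counts per library.

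The target genes encode nuclear proteins made in response to Notch activity, and those tested did not pass in either direction. HES1 (ENSG00000114315, chr3:193853934-193856521), a bHLH repressor and the target with 2 RBPJ core matches above, had 20, 13 and 27 counts with the SOX9 sgRNA, against 25, 16 and 16 with the control sgRNA. Its log2 fold change was -0.17 (SE 0.37, 95% interval -0.92 to 0.57, edgeR adjusted p = 0.862), and the groups overlapped.

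NRARP (ENSG00000198435, chr9:140194083-140196703), whose ankyrin-repeat protein binds the Notch transcription complex and limits it, had 11, 13 and 14 counts with the SOX9 sgRNA, against 11, 9 and 8 with the control sgRNA. In CPM the lowest SOX9 sgRNA library, at 13.2, was below the highest control library, at 14.7. The log2 fold change was 0.21 (SE 0.52, 95% interval -0.83 to 1.25, edgeR adjusted p = 0.887). NRARP, too, reached the minimum for the test in all 3 SOX9 sgRNA libraries but in only 1 control library.

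HES4 and HEY1, both bHLH repressors, did not reach the count needed for the test. HES4 (ENSG00000188290, chr1:934342-935552) had 8, 12 and 12 counts with the SOX9 sgRNA, against 6, 11 and 5 with the control sgRNA, a ratio of summed counts per TMM-scaled total of 1.24 (95% exact interval 0.696 to 2.23). HEY1 (ENSG00000164683, chr8:80676245-80680098) had 3, 6 and 5 counts with the SOX9 sgRNA, against 3, 2 and 4 with the control sgRNA, a ratio of 1.32 (0.533 to 3.46). Both intervals include 1, also over plain library totals, and cover counting error only. For HEY1 the interval is wide, and changes of that size were not detectable at these counts.

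NEURL1B encodes a Neuralized ligase that in mouse acts on ligand uptake, and its own row was also untested. NEURL1B (ENSG00000214357, chr5:172068269-172118543) had 10, 4 and 7 counts with the SOX9 sgRNA, against 7, 1 and 0 with the control sgRNA. SOX9 sgRNA library 2 lay below control library 1, so the groups overlapped. The ratio of summed counts per TMM-scaled total was 2.23 (95% exact interval 0.949 to 5.82, counting error only), and over plain library totals it was 2.50 (1.06 to 6.53), so whether the interval includes 1 depends on the scaling.

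The row on its other strand had many more counts and rose with the SOX9 sgRNA. ENSG00000253445 (chr5:172117457-172124723, minus strand), also an antisense gene in GENCODE, had 89, 101 and 113 counts with the SOX9 sgRNA, against 31, 61 and 45 with the control sgRNA. Every SOX9 sgRNA library was above every control library, at 116 ± 13.2 CPM with the SOX9 sgRNA and 61.2 ± 18.3 CPM with the control sgRNA (SD, n = 3 each). On the log2 scale the change was 0.92 (SE 0.22, 95% interval 0.49 to 1.35, edgeR adjusted p = 0.00178), and the ratio of summed counts per TMM-scaled total was 1.88 (95% exact interval 1.53 to 2.32). Without control library 1, the lowest, the log2 fold change was 0.69 and the call was lost (adjusted p = 0.0568). By fold change the row stood at place 125 of the 238 that rose, and at place 11 of the 103 that rose with at least its abundance.

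Here the overlap covers most of the other-strand row. A block of 383 of its 528 exonic bases lies wholly within the last of NEURL1B's 5 exon blocks, which is 4860 bases long. NEURL1B's own row took 10.1%, 3.81% and 5.83% of the counts of the pair in SOX9 sgRNA libraries, and 18.4%, 1.61% and 0% in control libraries. The exact binomial 95% intervals of these shares, for counting error only, were 4.95% to 17.8%, 1.05% to 9.47%, 2.38% to 11.6% in SOX9 sgRNA libraries and 7.74% to 34.3%, 0.0408% to 8.66%, 0% to 7.87% in control libraries. The control shares lay on both sides of the others.

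**Figure D3:**
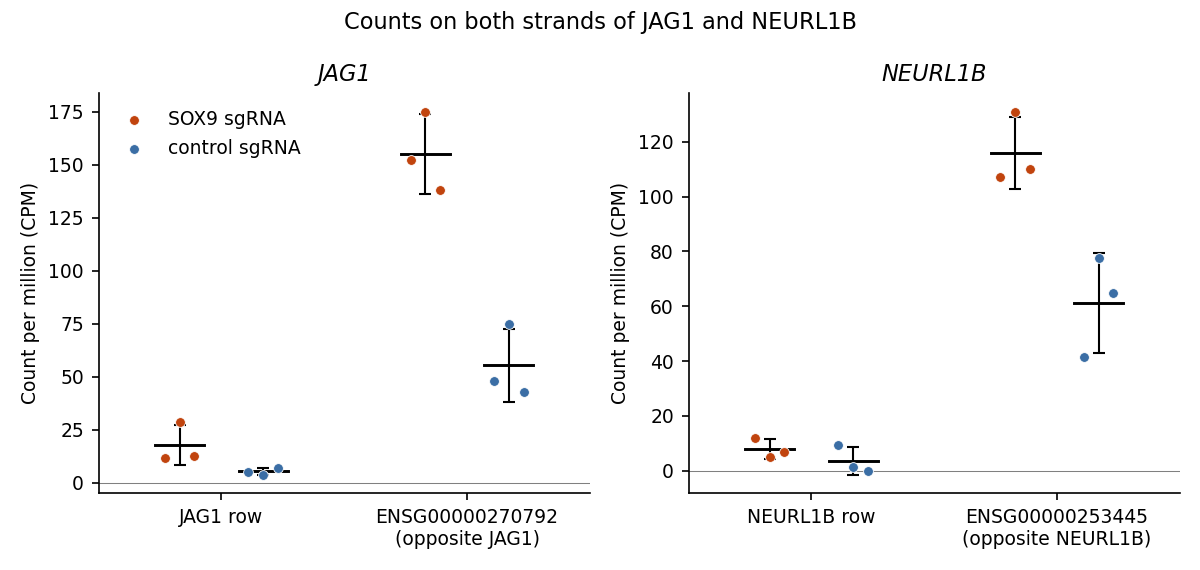
CPM, scaled by TMM factors, of JAG1, NEURL1B and the rows on their other strand, with points for single libraries, SOX9 sgRNA left of control sgRNA, and bars for the mean ± SD (n = 3 each). On the row opposite JAG1 the means are 155 and 55.4 CPM and on the row opposite NEURL1B 116 and 61.2 CPM for SOX9 sgRNA and control sgRNA, and neither pair of groups overlaps.

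**Figure D4:**
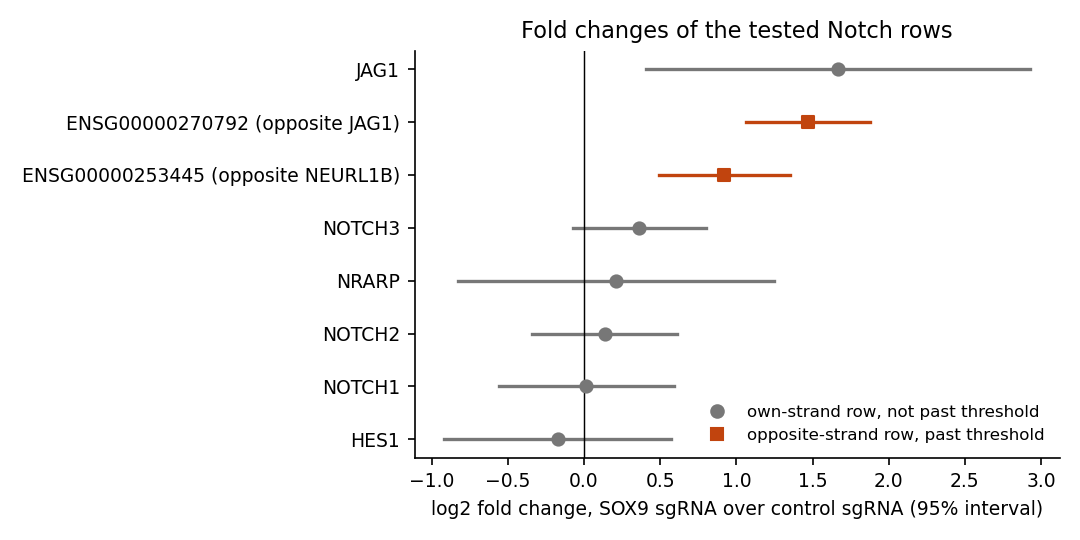
Log2 fold changes, SOX9 sgRNA over control sgRNA, of the tested Notch member rows and the rows on their other strand, with 95% intervals from the edgeR fit. The intervals of the rows opposite JAG1 (1.06 to 1.88) and NEURL1B (0.49 to 1.35) lie above 0, the JAG1 interval is wide (0.41 to 2.93) and that row missed the adjusted threshold, and the other intervals include 0.

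Per kilobase of exon, counts on the own rows could be ordered across the members, which is no order of mRNA levels. Each row was divided by its full exonic length, and where along a row its reads lie is not known. With the SOX9 sgRNA the order ran from HES4 at 11.0 ± 2.71 CPM per kb over HES1 (10.9 ± 2.38) and NOTCH3 (9.95 ± 0.275) to NRARP (5.57 ± 0.765), NOTCH1 (4.83 ± 1.22), NOTCH2 (4.17 ± 0.432), JAG1 (2.82 ± 1.49), HEY1 (1.68 ± 0.664), NEURL1B (1.25 ± 0.557) and JAG2 (0.713 ± 0.131). Among neighbours in that order only NOTCH3 and NRARP differed by more than the sum of their SDs. With the control sgRNA it ran from HES1 at 12.4 ± 3.34 CPM per kb over HES4 (8.70 ± 3.31), NOTCH3 (7.74 ± 0.658), NRARP (4.78 ± 0.709), NOTCH1 (4.70 ± 1.53) and NOTCH2 (3.78 ± 0.865) to HEY1 (1.27 ± 0.497), JAG2 (1.22 ± 0.980), JAG1 (0.866 ± 0.269) and NEURL1B (0.551 ± 0.789). There the gaps between NOTCH3 and NRARP and between NOTCH2 and HEY1 exceeded the sum of the SDs, and no other neighbours did. The row opposite NEURL1B was at 220 ± 24.9 CPM per kb with the SOX9 sgRNA and 116 ± 34.6 with the control sgRNA, and the row opposite JAG1 at 121 ± 14.7 with the SOX9 sgRNA and 43.3 ± 13.4 with the control sgRNA, all above every own row of a member.

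Other genes of the pathway, 61 in all, gave few calls on their own rows. Of these, 25 were tested, 1 rose and 2 fell, against 2.99% and 6.02% of all rows tested, and their median log2 fold change was 0.22. This median, too, includes rows such as NUMB that entered the test through the group where they are high. Of the 23 rows on the other strand of the 61 pathway genes, 18 were tested, 0 rose by edgeR or DESeq2 and 1 fell, with a median of -0.06. At an unadjusted p of 0.05, 2 of these other-strand rows were higher and 3 lower, against 9.17% and 11.3% of all rows tested.

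Among co-repressors, which hold RBPJ targets silent without Notch, 8 of 12 were tested and NCOR1 alone rose. NCOR1 had 87, 88 and 136 counts with the SOX9 sgRNA, against 53, 63 and 47 with the control sgRNA. Its log2 fold change was 0.69 (SE 0.20, 95% interval 0.29 to 1.09, edgeR adjusted p = 0.0169). The call was lost without SOX9 sgRNA library 3 (adjusted p = 0.133), without control library 1 (0.0689) and without control library 3 (0.0668). PIGL, which lies on the other strand and shares 295 bases with it, went the opposite way without passing, with 45, 32 and 43 counts with the SOX9 sgRNA and 59, 73 and 39 with the control sgRNA (log2 fold change -0.73, SE 0.25, adjusted p = 0.0561).

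MYC and CCND1, growth genes that Notch switches on directly in some breast cancer and leukaemia cells, both fell, while the other 4 of the 6 genes in their class (CDKN1A, GATA3, BMP2 and IL7R) were too low to test. MYC had 50, 33 and 47 counts with the SOX9 sgRNA, against 84, 80 and 71 with the control sgRNA. Its CPM averaged 49.6 ± 9.29 with the SOX9 sgRNA and 105 ± 5.96 with the control sgRNA (SD, n = 3 each), which is -1.08 on the log2 scale (SE 0.23, edgeR adjusted p = 3.24e-04). CCND1, which encodes cyclin D1, had 23, 20 and 33 counts with the SOX9 sgRNA, against 42, 45 and 44 with the control sgRNA, which is -1.03 on the log2 scale (SE 0.29, adjusted p = 0.0138). All SOX9 sgRNA libraries were lower for both genes, and the CCND1 call was lost without SOX9 sgRNA library 2 (log2 fold change -0.97, adjusted p = 0.0587). LTO1, whose yeast counterpart acts in ribosome maturation and which shares 498 bases with CCND1 on the other strand, fell as well, with 319, 301 and 447 counts with the SOX9 sgRNA, against 528, 558 and 501 with the control sgRNA (log2 fold change -0.81, SE 0.095, adjusted p = 3.31e-10).

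Own rows of the remaining classes held no call. Of 8 protease genes 6 were tested, with a median log2 fold change of 0.23, among them the gamma-secretase subunit gene PSENEN at 0.22 (edgeR adjusted p = 0.598). Of 8 genes of the nuclear complex 5 were tested, with a median of 0.47, and the Mastermind gene MAML1 had 65, 48 and 69 counts with the SOX9 sgRNA, against 48, 28 and 35 with the control sgRNA (log2 fold change 0.47, SE 0.26, adjusted p = 0.291). Of 12 endocytosis and turnover genes 3 were tested, with the most counts on the E3 ligase gene MIB2 at -0.12 (adjusted p = 0.835). NUMB, an inhibitor of Notch in asymmetric divisions, had 12, 22 and 30 counts with the SOX9 sgRNA, against 11, 5 and 7 with the control sgRNA (log2 fold change 1.22, SE 0.47, adjusted p = 0.0966). It reached the minimum for the test in all 3 SOX9 sgRNA libraries but in only 1 control library, so it entered through the group where it is high. NUMB and PIGL are named after their values were seen. The 5 receptor glycosylation genes had 1 tested, POFUT1, at -0.24 (adjusted p = 0.691). The fourth receptor gene NOTCH4, with 10, 1 and 5 counts with the SOX9 sgRNA, against 5, 5 and 8 with the control sgRNA, all 3 further ligand genes and all 6 further HES and HEY family genes were too low to test.

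**Figure D5:**
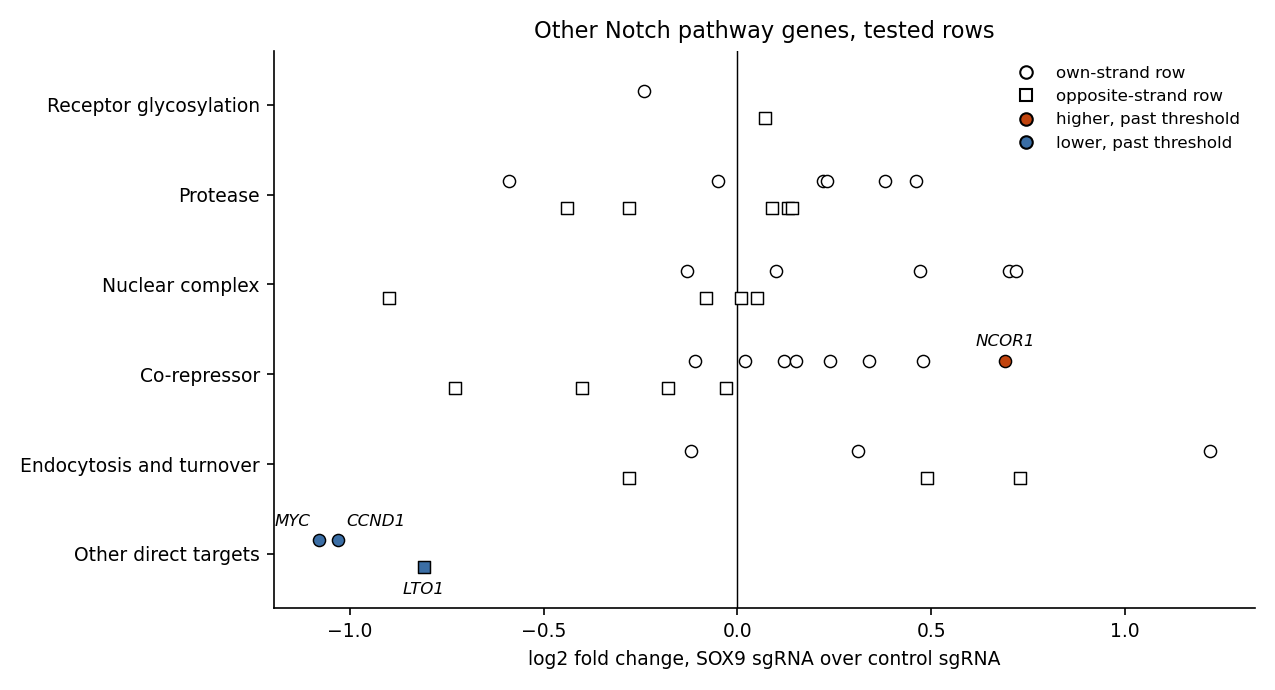
Log2 fold changes, SOX9 sgRNA over control sgRNA, of tested rows of other Notch pathway genes by class, with circles for own rows and squares for rows on the other strand, filled where the edgeR adjusted p is under 0.05. NCOR1 at 0.69 is the filled point above 0, and MYC at -1.08, CCND1 at -1.03 and the other-strand row LTO1 at -0.81 are the filled points below it.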

How the data were processed

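The authors deposited raw fragment counts per gene, with 1 table for each library. STAR 2.7.10a, Subread 1.6.2 and featureCounts were used on GRCh37 (hg19), per the submitters' processing notes. Per the file headers, fragments were counted over exons of Ensembl release 75 genes with strand setting 1, and a fragment counted for every gene it overlapped. Per the labels' protocols, the library kit was stranded, so that setting decides which gene of an overlapping pair receives a read. The sources used here do not say whether setting 1 is the one this kit calls for. With the opposite setting, fragments of an overlap would have counted for the other gene of the pair. In exons without such an overlap the setting decides whether a fragment is counted at all. Members without an other-strand row therefore depend on it as well.

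Rows on the other strand were found with bedtools 2.31.1 (at least 1 shared exonic base). The test was that of edgeR 4.0.16 in R 4.3.3 (filterByExpr, TMM factors, robust quasi-likelihood fit), with Benjamini-Hochberg adjustment over all 7959 tested rows at 0.05. CPM used totals over tested rows times TMM factors. Ratios of summed counts use the same scaled totals and have exact conditional binomial 95% intervals, which cover counting error only, and reads without molecular identifiers are not independent molecules. The procedure was also run on simulated counts. Only rows of higher abundance were changed there, so that run says little about detecting changes in rows with few counts. Symbols were found for 51452 of 57209 identifiers and types, from GENCODE release 29, for 51789. Of 93 listed symbols 92 matched. Promoters came from RefSeq, on GRCh38.p14, and no coordinates were converted between builds.

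The members, the pathway list and the marker lists were chosen with earlier results of these data known. The text names every member, SOX9, and pathway genes that passed the test or had the most counts in their class. Alternatives were RLE factors and library totals for scaling, no filter and a mean count of 20, DESeq2 1.42.0, a replicate block, and leaving out each library.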

Additional observations from a re-analysis of the deposited data

How the results depend on the processing

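The other-strand rows kept their direction and, with 1 exception, their call in every alternative. The row opposite JAG1 ran from 1.31 to 1.74 on the log2 scale (adjusted p 5.79e-10 to 1.17e-05) and the row opposite NEURL1B from 0.69 to 1.12, so that 2 rows were called, or 1 without control replicate 1. No member's own row was called (0), except JAG1 with library totals (1 row). Over all rows 238 rose and 479 fell. Library totals alone moved the median of all rows to 0.19 and gave 625 higher and 249 lower. No filter gave 151 higher, with 423 lower, and DESeq2 gave 130 higher and 343 lower. Leaving out 1 library gave 161 to 207 higher and 364 to 430 lower. Of pathway own rows, 1 rose and 2 fell, and 2 rose with library totals and 0 with no filter (NCOR1, 0.66, adjusted p = 0.0608). Leaving out 1 library gave 0 to 1 higher and 1 to 2 lower. Of their other-strand rows, 1 rose with library totals and 1 with the mean count of 20, and leaving out 1 library gave 0 to 1 higher and 1 to 2 lower. Signs turned for values near 0. NOTCH1 was at -0.02 with no filter and ran from -0.17 to 0.30 when 1 library was left out. HES1 was at 0.01 with library totals and ran from -0.33 to 0.06 when 1 library was left out. MIB2, an E3 ligase gene at -0.12, was at 0.06 with library totals and ran from -0.29 to 0.11 when 1 library was left out. JAG1, HES1 and NRARP had no value with the mean count of 20. The cause of these shifts was not tested.

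Same-numbered libraries did not deviate together (correlations -0.00287, 0.0193 and -0.0109). At these low counts counting noise can hide a shared effect, so the check cannot settle whether the numbers pair libraries. With a replicate block 175 rows rose and 399 fell.

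Low counts limit JAG2, HES4, HEY1 and NEURL1B, with at most 12 in any library, and their cause was not tested. Ratios of summed counts over plain library totals, an alternative chosen after seeing the data, ran higher than over TMM-scaled totals, with 3.07 for the row opposite JAG1 and 2.11 for the row opposite NEURL1B.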

Other observations

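Of the 36 further pathway genes too low for the test, DLL4 and HES6 had counts that differed between groups by more than counting error. They are named after their values were seen. DLL4, a ligand best known from blood vessels, had 7, 11 and 8 counts with the SOX9 sgRNA, against 0, 1 and 3 with the control sgRNA, a ratio of summed counts per TMM-scaled total of 5.52 (95% exact interval 1.92 to 21.8). HES6, which in mouse interferes with HES1, had 0, 0 and 2 counts with the SOX9 sgRNA, against 5, 2 and 12 with the control sgRNA, a ratio of 0.0894 (0.0101 to 0.371). The intervals cover counting error only and are not adjusted for the number of rows, and the share over all untested rows was not computed. Over rows with enough counts, pairs of libraries within a group had a chi-square per degree of freedom of 1.97 to 2.44. Counting error alone would give about 1, so these intervals can be too narrow. Over plain library totals the intervals of RFNG (1.07 to 10.6), TLE2 (1.09 to 4.29) and NEURL1 (1.05 to 13.9) also excluded 1. That of DTX4 (1.00 to 5.16) began at about 1. Which genes stand out this way therefore depends on the scaling. With no filter on low counts neither DLL4 nor HES6 passed the edgeR test, with log2 fold changes of 2.35 (adjusted p = 0.285) for DLL4 and -3.35 (adjusted p = 0.141) for HES6.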
